A study of Mus musculus with 8 samples.

Results

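The agonist precursors described here are thymocytes sorted from mice as CD4-CD8-CD5+TCRb+ cells, compared between a Bcl6 knockout label and a wild-type label by bulk RNA sequencing. They make up 4 of the 8 libraries in the series, 2 per label, and were chosen by their sample titles. Mice labelled WT carried Bcl6fl/fl, a Bcl6 gene flanked by recombination sites, and mice labelled KO carried Bcl6fl/fl together with Cd4cre, so the floxed allele was common to both groups. The Cre recombinase of Cd4cre is driven by Cd4 regulatory sequence and acts in cells that express Cd4 or did so at an earlier stage, among them double-positive thymocytes. The labels give no age or sex, and they do not say that the libraries of a group came from separate animals, and the p-values therefore describe the spread among these libraries alone, which may be technical. The other 4 libraries came from double-positive thymocytes stimulated in culture and are used only for the comparison of the genotype effect near the end.

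Most developing T cells that receive a strong T cell receptor signal from self ligand die, but some, in a process called agonist selection, lose or lower their coreceptors and survive. In the thymus these CD4- and CD8-negative, T cell receptor alpha-beta-positive precursors include the source of the CD8-alpha-alpha intraepithelial lymphocytes of the gut, and they carry receptors and nuclear factors induced by antigen receptor signalling, such as PD-1 and the Nr4a family. BCL6 is a zinc-finger transcriptional repressor, best known in follicular helper T cells and germinal centre B cells. The comparison addresses how the messenger RNA of these precursors differs when Bcl6 is deleted by Cd4cre.

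The deposited tables listed 12665 genes with 16022736 and 15548622 counts in the WT libraries and 14754440 and 15825507 in the KO libraries. Transcripts of the targeted gene did not separate the labels: Bcl6 (chromosome 16, 23965052 to 23988852, mm10) had FPKM, fragments scaled to transcript length and library size, of 11.5 and 13.9 in WT replicates 1 and 2 and 8.81 and 14.4 in KO replicates 1 and 2. Its fitted log2 fold change was -0.14 ± 0.23 (SE) with an edgeR adjusted p of 0.882, and it changed sign to 0.16 without KO replicate 1 and to 0.0076 without WT replicate 2. These gene-level counts pool all exons, so they do not check the deletion, and the groups are called by their labels throughout. The sorted cells carried T cell transcripts. The CD3 chain Cd3e was at even levels, with 119, 123, 117 and 123 FPKM in WT replicates 1 and 2 and KO replicates 1 and 2. This order is used for every set of 4 values that follows. Thy1, another T cell marker, was higher in both KO libraries, at 207, 186, 299 and 318 FPKM (log2 fold change 0.64, edgeR adjusted p = 0.0678). Cd5, a sorting marker, was at 74.1, 86.3, 62.5 and 107 FPKM. Of the coreceptors sorted against, Cd8a was at 1.68, 2.43, 1.17 and 3.49 FPKM, whereas Cd4 was at 26.8, 55.0, 22.8 and 78.4 FPKM, higher in replicate 2 under both labels.

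Libraries with the same label differed from each other, among other genes in markers of other cell types. In a principal component analysis, the first component carried 66.3% of the variance and ordered the libraries as WT replicate 2 (-27.0), WT replicate 1 (-12.4), KO replicate 2 (14.1) and KO replicate 1 (25.3). The second, with 23.5%, separated replicate numbers: both replicates 1 were at negative scores (-15.6 for WT, -7.90 for KO) and both replicates 2 at positive ones (7.89 and 15.6). Between the WT libraries 93 of the 10227 tested genes differed at least 2-fold, between the KO libraries 124 did, and 36 did so in both pairs in the same direction. Eps8l1, an actin-regulating adaptor, was at 0.376 and 12.1 FPKM in the WT libraries and 0.206 and 13.2 in the KO libraries, high in replicate 2 of each. Foxp3, the defining factor of regulatory T cells, was also higher in replicate 2, at 8.12, 17.3, 3.36 and 14.1 FPKM. Transcripts of B and myeloid cells went the other way and peaked in KO replicate 1: H2-Ab1, an MHC class II chain, was at 20.1, 5.23, 57.5 and 16.4 FPKM, and Csf1r, a macrophage growth factor receptor, at 1.73, 0.646, 7.59 and 0.725 FPKM. Summed over the 6 listed B cell markers, FPKM was 103.4, 31.3, 273.7 and 103.5, and over the 9 listed myeloid markers 159.0, 85.0, 354.4 and 177.9. Most of each sum came from 1 gene. Cd74 gave 89.4, 26.9, 248 and 85.4 FPKM of the B cell sum. Fcer1g gave 110, 64.5, 187 and 146 FPKM of the myeloid sum. The sums therefore do not measure B or myeloid cell content. Taken singly, all 5 tested B cell markers and all 7 tested myeloid markers were higher under the KO label. Their median log2 fold changes were 1.47 and 1.45. None was called by edgeR, and 3 and 2 of them had an unadjusted p under 0.05 (7.21% of all tested genes were higher at that level). In bulk samples such as these, fewer cells of a type and less RNA per cell cannot be told apart.

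**Figure D1:**
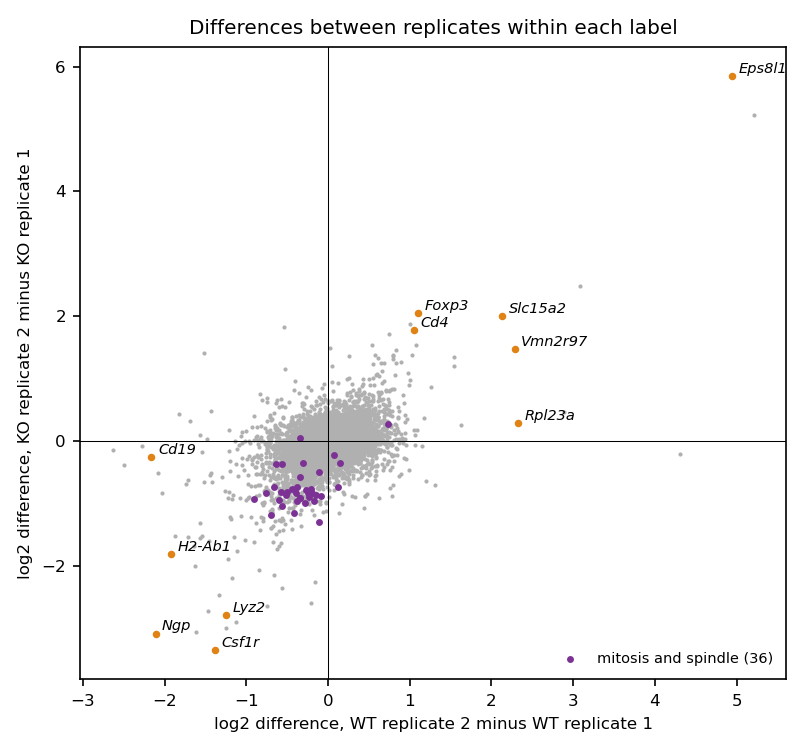
Log2 difference between the 2 libraries of each label for the 10227 tested genes (grey points), WT on the horizontal axis and KO on the vertical axis, with mitosis and spindle genes in purple and named genes in orange. Eps8l1, Foxp3 and Cd4 lie at the upper right, high in replicate 2 under both labels. Csf1r, Lyz2, Ngp and H2-Ab1 lie at the lower left, and most mitosis genes lie below 0 on the KO axis, higher in KO replicate 1 than in KO replicate 2.

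Testing was limited to the 10227 genes that reached 1 FPKM in 2 or more libraries. Of these, 113 passed edgeR's quasi-likelihood test at a Benjamini-Hochberg adjusted p under 0.05, which is 1.1% of those tested. Among the calls, 84 were lower under the KO label (0.821%) and 29 were higher (0.284%). All 113 had no overlap between the libraries of the labels, as had 43.5% of all tested genes. The falls were larger than the rises: 70 of the 84 fell at least 2-fold, down to a log2 fold change of -4.54, and 20 of the 29 rose at least 2-fold, up to 2.46. Some were at low level under 1 label, with 25 of the 84 below 1 FPKM in both KO libraries and 5 of the 29 below 1 FPKM in both WT libraries. At an unadjusted p under 0.05 the directions were near balance, with 737 higher (7.21%) and 708 lower (6.92%), and the median log2 fold change over all tested genes was -0.0036. DESeq2 on the same counts called 260 higher and 245 lower, among them all 113.

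Most calls were lost when WT replicate 2 or KO replicate 1 was left out. Of the 113, 7 were still called when WT replicate 2 was left out and 18 when KO replicate 1 was, against 81 for WT replicate 1 and 86 for KO replicate 2, and in all 4 fits every one of the 113 had the sign it had with all libraries. Only Lmo4, Prr5l, Trpm1 and Hspa1b were called in all 4. Each of these fits leaves 1 library in a group, whose spread is then taken from the other group. With fewer libraries the test is also weaker, so a lost call does not show that the library left out made the difference. For many of the genes below that lost their call in any of these fits, the lowest and highest log2 fold change over the 4 is given.

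**Figure D2:**
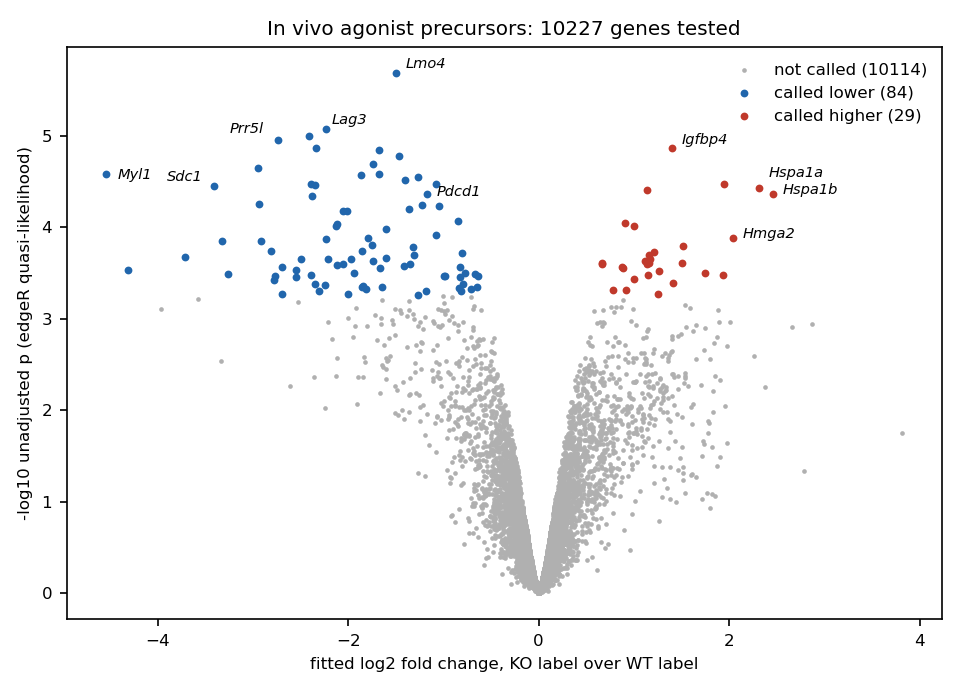
Fitted log2 fold change (KO label over WT label, horizontal) against -log10 of the unadjusted p (vertical) for the 10227 tested genes. The 84 genes called lower (blue) reach further from 0 than the 29 called higher (red), and Lmo4 has the smallest p.

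Inhibitory receptors, which dampen T cell activation, held 4 of the calls, all lower under the KO label. Pdcd1 (chromosome 1, 94038305 to 94052553), encoding PD-1, was at 156 and 178 FPKM in the WT libraries and 77.2 and 71.5 in the KO libraries. Both KO libraries held less than the lower WT library, and Pdcd1 fell by 1.18 ± 0.12 on the log2 scale (SE, n = 2 per label, edgeR adjusted p = 0.0185). Lag3 (chromosome 6, 124904361 to 124911705), whose protein binds MHC class II, was at 12.1, 14.6, 2.73 and 2.96 FPKM, with a log2 fold change of -2.23 ± 0.17 and an edgeR adjusted p of 0.0179. Tigit (chromosome 16, 43648867 to 43664146), which binds the poliovirus receptor, was at 21, 29.1, 5.91 and 6.53 FPKM, with -2.02 ± 0.21 and an edgeR adjusted p of 0.0219. Cd160, a receptor of intraepithelial and natural killer cells that binds HVEM, was the least changed of the 4, at 44.9, 46.1, 29.9 and 29.1 FPKM with -0.63 ± 0.09 and an edgeR adjusted p of 0.0393.

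The list of inhibitory receptors had 16 tested members, of which 4 were called lower and none higher, beside 0.821% and 0.284% of all genes, and its median log2 fold change was -0.13. The remaining 12 did not pass, and they lay on both sides of 0. Cd244a, a SLAM-family receptor, had 3.88, 2.88, 6.9 and 6.6 FPKM (log2 fold change 0.99, edgeR adjusted p = 0.0588), and Btla, which also binds HVEM, had 19.5, 18.5, 25.1 and 30.3 FPKM (0.53, edgeR adjusted p = 0.116). Cd200r1 had 7.41, 14.1, 3.31 and 5.11 FPKM (-1.36, edgeR adjusted p = 0.142). Leaving out single libraries, Lag3 was lost only without WT replicate 2 (adjusted p = 0.0547 by edgeR), and Pdcd1 and Tigit were lost when WT replicate 2 (0.0587 and 0.0694) or KO replicate 1 (0.0712 and 0.0676) was absent. The log2 fold change of Lag3 ranged from -2.36 to -2.09 over these fits, that of Pdcd1 from -1.27 to -1.07 and that of Tigit from -2.23 to -1.76. Cd160 was called only without WT replicate 1, with values from -0.66 to -0.60. The 6 regulatory T cell markers, some of which are expressed with these receptors, summed to 127.7, 186.5, 90.7 and 146.3 FPKM, and their part in these differences was not tested.

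Of 39 tested genes induced by T cell receptor signalling, 1 was called, and it was lower under the KO label (0.821% of all tested genes were called lower). That member was Nr4a2, an orphan nuclear receptor (chromosome 2, 57106830 to 57124003), at 19.3 and 26.7 FPKM in the WT libraries and 5.78 and 8.02 in the KO libraries. It fell by 1.75 ± 0.22 on the log2 scale (edgeR adjusted p = 0.0362), with values from -1.99 to -1.49 when single libraries were left out, and was lost without KO replicate 1 (0.0722) and without WT replicate 2 (0.0879). Its relative Nr4a1 had 136, 158, 55.1 and 110 FPKM and a log2 fold change of -0.84 ± 0.30 that did not pass (edgeR adjusted p = 0.282), and the 2 KO libraries differed from each other. Egr2, an early growth response factor, had 21.3, 22.7, 13.9 and 19.3 FPKM (-0.41, edgeR adjusted p = 0.325). At an unadjusted p under 0.05, 9 members were lower and 1 was higher, where 6.92% and 7.21% of all tested genes were, and the list's median was -0.11. Among these were the MAP kinase phosphatase Dusp4, at 19.98, 27.9, 10.7 and 12.7 FPKM (-1.04, edgeR adjusted p = 0.0683), and the signalling inhibitor Spry1, at 9.19, 15.1, 5.52 and 6.15 FPKM (-1.07, edgeR adjusted p = 0.122).

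Of 35 tested genes of the proximal T cell receptor machinery, only Ubash3b was called, and it was lower (0.821% of all tested genes were called lower). It encodes a phosphatase that restrains receptor signalling and was at 29.8, 33.4, 19.0 and 16.9 FPKM, a fall of 0.82 ± 0.12 on the log2 scale (edgeR adjusted p = 0.0393). Id3, an inhibitor of E-protein transcription factors that rises with receptor signal strength, was at 78.4, 92.5, 45.7 and 51.9 FPKM and fell by 0.82 ± 0.12 (edgeR adjusted p = 0.0471). Both Ubash3b (-0.92 to -0.72) and Id3 (-0.93 to -0.69) were called only when WT replicate 1 was left out. The median of the receptor machinery list was 0.05.

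Receptors of the type 17 program, the IL-17-associated state of some innate-like T cells, formed a further group of falls. Il23r (chromosome 6, 67422932 to 67491855), the specific chain of the IL-23 receptor, was at 14.2 and 11.1 FPKM in the WT libraries and 2.53 and 1.10 in the KO libraries. It fell by 2.81 ± 0.36 on the log2 scale (edgeR adjusted p = 0.0388). Il1r1 (chromosome 1, 40225080 to 40317257), the signalling receptor for IL-1, was at 18.5, 11.8, 3.81 and 2.02 FPKM and fell by 2.39 ± 0.34 (edgeR adjusted p = 0.0393). Il17re, a chain of the IL-17C receptor, was at 5.02, 3.41, 1.34 and 0.777 FPKM and fell by 2.0 ± 0.31 (edgeR adjusted p = 0.0495). In all 3 genes the replicate 1 library was the higher of its label, and the labels did not overlap.

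The list of 20 tested type 17 genes had these 3 calls, all lower (0.821% of all tested genes), and 11 lower and 2 higher at an unadjusted p under 0.05 (6.92% and 7.21% of all). Its median log2 fold change was -0.87, against -0.0036 for all genes. The kinase Blk had 65.5, 39.9, 34.2 and 15.8 FPKM (-1.08, edgeR adjusted p = 0.271), the chemokine receptor Ccr6 had 7.86, 5.41, 4.32 and 2.85 FPKM (-0.89, edgeR adjusted p = 0.205), and the water channel Aqp3 had 17.3, 11.3, 6.91 and 5.23 FPKM (-1.25, edgeR adjusted p = 0.0949). Il6st, the shared chain of IL-6 family receptors, had 35.7, 60.0, 14.3 and 19.2 FPKM (-1.53, edgeR adjusted p = 0.068). Sox13, a factor of gamma-delta T cells, stood on the other side, with 21, 15.4, 48.4 and 31.4 FPKM (1.13, edgeR adjusted p = 0.105). Il23r ranged from -3.53 to -2.32 and Il1r1 from -2.92 to -1.99 over the fits without single libraries, both lost when either WT library was left out, and Il17re, from -2.45 to -1.65, was called only without KO replicate 2. The 3 gamma-delta markers in the files (Sox13, Blk and Maf) summed to 120.1, 76.1, 113.0 and 68.5 FPKM, higher in replicate 1 under both labels. Zbtb16, the factor of innate-like T cells, had 27.8, 26.4, 38.7 and 22.9 FPKM (0.18, edgeR adjusted p = 0.839), a value that became -0.26 without KO replicate 1. The part of such cells in the type 17 differences was not tested.

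**Figure D3:**
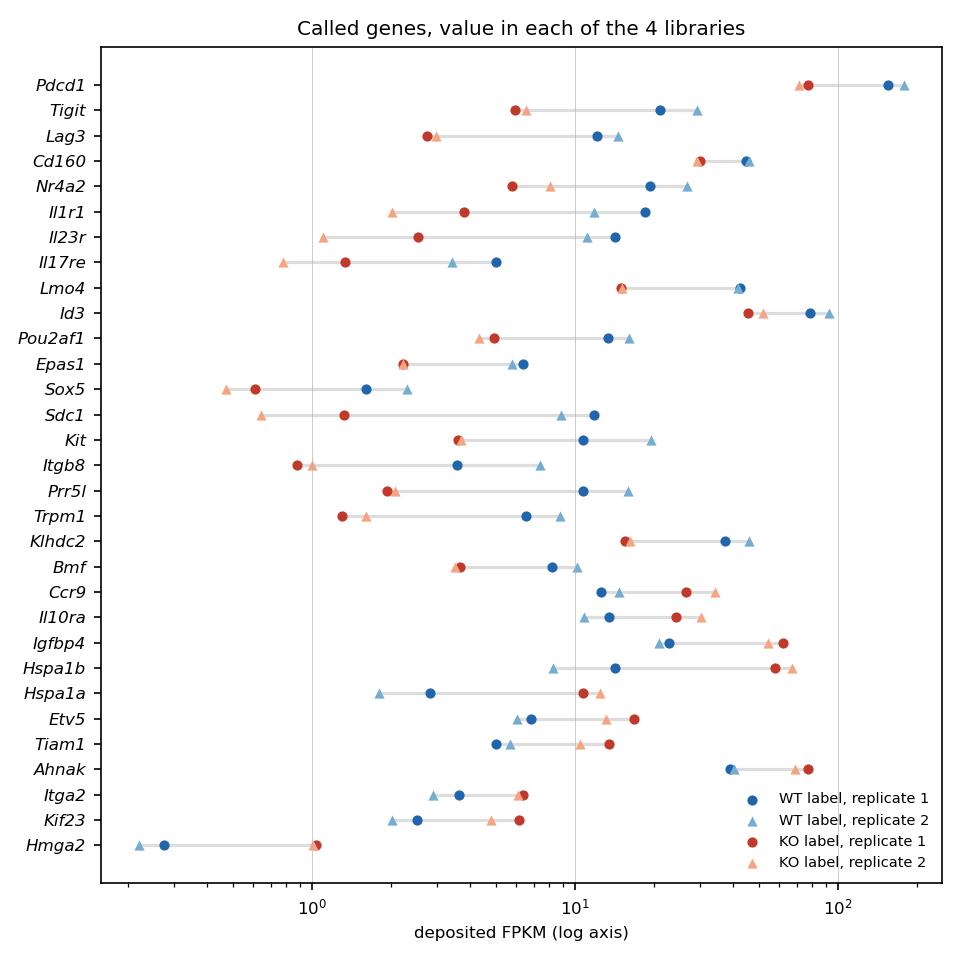
Deposited FPKM (log axis) of 31 called genes in each of the 4 libraries, WT label in blue and KO label in red, replicate 1 as circles and replicate 2 as triangles. In each gene the 2 WT points lie together on one side of the 2 KO points, and the gap between labels is widest for Sdc1 and Prr5l.

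Kit and Il10ra, 2 further cytokine receptors, passed in opposite directions. Kit (chromosome 5, 75574916 to 75656722), the stem cell factor receptor and a marker of early double-negative thymocytes, was at 10.7, 19.5, 3.61 and 3.70 FPKM and fell by 2.05 ± 0.28 on the log2 scale (edgeR adjusted p = 0.0388). It ranged from -2.42 to -1.56 without single libraries and was lost only without KO replicate 1 (0.0838). Il10ra, the ligand-binding chain of the IL-10 receptor, was at 13.5, 10.8, 24.3 and 30.3 FPKM and rose by 1.16 ± 0.15 (edgeR adjusted p = 0.0388). Il10ra ranged from 1.0 to 1.33 and was lost without KO replicate 1 (0.0541) and WT replicate 2 (0.116). The 7 early double-negative markers summed to 60.4, 62.7, 57.0 and 55.0 FPKM. Kit was the only 1 of 5 tested that was called (0.821% of all tested genes were called lower). Lyl1, a basic helix-loop-helix factor, was also lower in both KO libraries, at 5.91, 7.37, 2.83 and 1.51 FPKM (edgeR adjusted p = 0.088). The part of such cells in the Kit value was not tested.

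Among transcription regulators the clearest separation was that of Lmo4 (chromosome 3, 144188530 to 144205220), a LIM-only adaptor of transcription complexes. It had 42.4 and 41.9 FPKM in the WT libraries and 14.9 and 15.2 in the KO libraries, so the libraries of a label differed far less than the labels. Lmo4 fell by 1.49 ± 0.09 on the log2 scale (edgeR adjusted p = 0.0179), and its value stayed between -1.50 and -1.48 when any 1 library was left out. Pou2af1, the OCA-B coactivator of octamer factors, was at 13.4, 16.1, 4.93 and 4.31 FPKM and fell by 1.68 ± 0.15 (edgeR adjusted p = 0.0179). Pou2af1 ranged from -1.80 to -1.53 and was lost without WT replicate 2 (0.0697).

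Epas1 and Sox5 were singled out after their values were seen. Epas1, encoding the hypoxia-inducible factor HIF-2-alpha, was at 6.38, 5.79, 2.21 and 2.22 FPKM and fell by 1.46 ± 0.12 on the log2 scale (edgeR adjusted p = 0.0179), and the SRY-box factor Sox5 was at 1.6, 2.3, 0.610 and 0.474 FPKM and fell by 1.86 ± 0.24 (edgeR adjusted p = 0.0388). Epas1 (-1.53 to -1.39) and Sox5 (-2.09 to -1.57) were both lost when KO replicate 1 (0.0534 and 0.0626) or WT replicate 2 (0.0619 and 0.104) was absent. In the opposite direction, Etv5, an ETS factor, was at 6.8, 6.06, 16.8 and 13.2 FPKM and rose by 1.21 ± 0.15 (edgeR adjusted p = 0.0388), and the chromatin architectural protein Hmga2 was near the lower limit of expression in WT, at 0.274 and 0.220 FPKM, and at 1.03 and 1.01 in KO, a rise of 2.04 ± 0.24 (edgeR adjusted p = 0.0336). Etv5 (1.02 to 1.39) was called only without KO replicate 2, and Hmga2 (1.90 to 2.21) was called when KO replicate 2 or WT replicate 1 was left out and in neither of the other fits.

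Lmo4 was the only called gene among 27 tested lineage fate factors, whose median was 0.03, where 0.821% of all tested genes were called lower. Gata3, needed for CD4 T cell development, had 41.3, 43.3, 63.9 and 62.9 FPKM and just missed the threshold (log2 fold change 0.58 ± 0.10, edgeR adjusted p = 0.0589). Zbtb7b, the CD4-lineage factor, had 37.1, 36.5, 42.4 and 60.1 FPKM (0.47, edgeR adjusted p = 0.277), Runx3, the CD8-lineage factor, had 71.4, 61.7, 75.9 and 74 (0.16, edgeR adjusted p = 0.633), and Tbx21, the T-bet factor of intraepithelial precursors, had 72.2, 43.7, 73.8 and 64.5 (0.25, edgeR adjusted p = 0.741). WT replicate 2 alone was low for Tbx21, and without it the value became -0.06. In the Ikaros family, Ikzf2 had 48.9, 82.5, 28.0 and 32.7 FPKM (-1.12, edgeR adjusted p = 0.117) and Ikzf3 had 65.1, 81.8, 51.8 and 52.4 (-0.50, edgeR adjusted p = 0.169). Of the 4 tested members of this family, 0 were called by edgeR and 2 were lower at an unadjusted p under 0.05 (6.92% of all tested genes).

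Of 34 tested genes described as BCL6-repressed in other cells, 2 were called, Id3 (above) and Bmf, and both were lower under the KO label (0.821% of all tested genes). At an unadjusted p under 0.05, 4 were higher and 4 lower (7.21% and 6.92% of all), and the median was 0.12. Bmf, a pro-apoptotic BH3-only protein, was at 8.22, 10.2, 3.68 and 3.52 FPKM and fell by 1.37 ± 0.14 on the log2 scale (edgeR adjusted p = 0.0219). Bmf ranged from -1.51 to -1.19 and was lost without KO replicate 1 (0.0676) and WT replicate 2 (0.0749). It was the only called gene of 10 tested pro-apoptotic members of the Bcl2 family (0.821% of all tested genes were called lower). None of the 10 had a positive log2 fold change, and their median was -0.21. Of the 10, 2 were lower at an unadjusted p under 0.05 (6.92% of all tested genes). Bcl2l11, encoding BIM, the main killer of autoreactive thymocytes, had 19.7, 23.8, 15.6 and 25.7 FPKM, and the survival factor Bcl2 had 28.9, 38.5, 28.9 and 35.7 FPKM. Neither passed (edgeR adjusted p = 0.943 and 0.931), and the labels overlapped.

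Several of the largest falls were in genes that reached low levels in the KO libraries. Sdc1 (chromosome 12, 8771323 to 8793715), the heparan sulphate proteoglycan syndecan-1, was at 11.8 and 8.84 FPKM in the WT libraries and 1.32 and 0.640 in the KO libraries, and fell by 3.41 ± 0.33 on the log2 scale (edgeR adjusted p = 0.0179). Prr5l (chromosome 2, 101714285 to 101883027), whose protein binds the mTOR complex that contains RICTOR, was at 10.7, 15.9, 1.93 and 2.08 FPKM and fell by 2.74 ± 0.22 (edgeR adjusted p = 0.0179). Trpm1 (chromosome 7, 64153835 to 64269775), a cation channel best known in retina and melanocytes, was at 6.52, 8.81, 1.30 and 1.61 FPKM and fell by 2.41 ± 0.19 (edgeR adjusted p = 0.0179). Prr5l and Trpm1 were called whichever library was left out, and Sdc1 (-4.02 to -2.96) was lost only without WT replicate 2 (0.0619).

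Myl1, a muscle myosin light chain, had the most negative fitted value of all tested genes, -4.54 ± 0.41 (edgeR adjusted p = 0.0179), from 72 and 79 counts in the WT libraries and 2 and 4 in the KO libraries. The ratio of its summed counts, scaled by library totals, was 24.4 with an exact 95% binomial interval of 10.9 to 67.5 that covers counting error only. Myl1 ranged from -5.05 to -4.18 and was lost without KO replicate 1 (0.0536) and WT replicate 2 (0.0802). Avpr1a, the vasopressin V1a receptor, had 1.19, 2.02, 0.147 and 0.0936 FPKM and fell by 3.72 ± 0.48 (edgeR adjusted p = 0.0388). The potassium channels Kcnc1 (2.70, 2.24, 0.402 and 0.244 FPKM) and Kcnk1 (5.80, 3.28, 0.820 and 0.587 FPKM), the kinesin chain Kif5c (1.30, 2.58, 0.330 and 0.236 FPKM), the vesicle fusion factor Napb (2.74, 4.65, 0.520 and 0.452 FPKM) and the claudin Cldn10 (6.8, 9.38, 1.44 and 1.66 FPKM) all fell to under 2 FPKM in both KO libraries. The predicted gene Gm5148 had a log2 fold change of -4.32 (edgeR adjusted p = 0.0393), the second most negative, from 1.10 and 2.55 FPKM in the WT libraries and 0.118 and 0.0641 in the KO libraries. Others of the 20 largest falls among genes that are not predicted genes were Pxdc1, Fam83a, Greb1, Carmil3, Lrrn2, C1ql3 and Epdr1, with log2 fold changes from -3.32 for Pxdc1 to -2.49 for Epdr1. Lrrn2 (-3.08 to -2.14) was called in none of the 4 fits that leave out a library, Kcnc1 (-3.35 to -2.61) was lost only without WT replicate 2 (0.0604), and Avpr1a, Kcnk1, Kif5c, Napb, Cldn10, Pxdc1, Fam83a, Greb1, Carmil3, C1ql3 and Epdr1 were each called in 1 or 2 of them.

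Of 27 tested integrins and adhesion molecules, 1 fell and 2 rose, beside 0.821% and 0.284% of all tested genes, with a median of 0.16. Itgb8 (chromosome 12, 119158022 to 119238802), the integrin beta-8 chain that with alpha-v activates latent TGF-beta, was at 3.57, 7.38, 0.882 and 1.01 FPKM and fell by 2.54 ± 0.35 on the log2 scale (edgeR adjusted p = 0.0393). Itga2, a chain of a collagen receptor, was at 3.64, 2.90, 6.38 and 6.06 FPKM and rose by 0.92 ± 0.14 (edgeR adjusted p = 0.0471), and Cdh3, P-cadherin, was at 0.354, 0.284, 1.14 and 1.33 FPKM and rose by 1.93 ± 0.27 (edgeR adjusted p = 0.0393). Itgb8 (-2.97 to -1.92) and Itga2 (0.77 to 1.09) were both lost when KO replicate 1 (0.0900 and 0.158) or WT replicate 2 (0.0547 and 0.124) was absent. Cdh3 (1.79 to 2.11) was called in none of these 4 fits.

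Emb, embigin, an accessory protein of lactate transporters, was at 20.7, 22.7, 12 and 13.1 FPKM and fell by 0.80 ± 0.10 on the log2 scale (edgeR adjusted p = 0.0388). It ranged from -0.86 to -0.73 without single libraries, was lost without KO replicate 1 (0.169) and WT replicate 2 (0.0998), and was the only called gene of 32 in the egress and late maturation list, whose median was -0.02. The egress receptor S1pr1 had 32.9, 51.3, 24.9 and 43.1 FPKM (log2 fold change -0.32, edgeR adjusted p = 0.749), and its inducer Klf2 had 149, 143, 115 and 134 (-0.24, edgeR adjusted p = 0.428). Cd55, a complement regulator, had 3.23, 6.15, 1.28 and 1.42 FPKM (-1.80, edgeR adjusted p = 0.0683), and Ly6d had 12, 5.18, 40.6 and 21.2 (1.83, edgeR adjusted p = 0.136). Of 28 glycolysis and hypoxia genes, Eno3, the muscle-type enolase, was called lower, as were 0.821% of all tested genes. It was at 38.0, 45.2, 14.5 and 19.0 FPKM and fell by 1.32 ± 0.16 (edgeR adjusted p = 0.0365). Eno3 (-1.51 to -1.15) was lost without KO replicate 1 (0.0774) and WT replicate 2 (0.108).

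The largest rises were those of the inducible HSP70 chaperones. Hspa1b (chromosome 17, 34956436 to 34959238) was at 14.3 and 8.29 FPKM in the WT libraries and 57.9 and 67.2 in the KO libraries, a rise of 2.46 ± 0.24 on the log2 scale (edgeR adjusted p = 0.0185). Its neighbour Hspa1a (chromosome 17, 34969190 to 34972156) was at 2.82, 1.80, 10.7 and 12.5 FPKM, a rise of 2.32 ± 0.22 (edgeR adjusted p = 0.0181). The 2 genes encode near-identical proteins, so reads can be split between them uncertainly and their values are not independent. Hspa1b was called whichever library was left out, and Hspa1a (2.04 to 2.68) was lost only without WT replicate 2 (0.0604). Their promoters are shown because the pair moved together. The 250 bases upstream of each start, from RefSeq on GRCm38.p6, minus strand, 5′ to 3′, are at chr17:34972157-34972406 for Hspa1a and chr17:34959239-34959488 for Hspa1b, with a 2-unit heat shock element in capitals:
Hspa1a: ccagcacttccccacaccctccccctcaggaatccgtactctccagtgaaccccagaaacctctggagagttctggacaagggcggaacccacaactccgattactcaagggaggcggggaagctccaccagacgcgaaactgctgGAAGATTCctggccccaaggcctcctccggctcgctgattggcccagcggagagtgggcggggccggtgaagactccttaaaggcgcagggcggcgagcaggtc
Hspa1b: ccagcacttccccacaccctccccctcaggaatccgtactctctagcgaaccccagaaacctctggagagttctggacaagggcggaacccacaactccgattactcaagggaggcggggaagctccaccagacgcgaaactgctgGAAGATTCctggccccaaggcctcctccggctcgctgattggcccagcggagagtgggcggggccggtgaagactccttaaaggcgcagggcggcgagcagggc
The windows are identical at 247 of 250 bases, and the capitals begin at base -104, counted from -1 at the base before the start.

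The motif, GAANNTTC or TTCNNGAA on either strand, joins 2 inverted units of the element that heat shock factors bind. It occurred in 11.9% of the 8314 tested genes that have a window of this length, in 4 of 21 called higher, in 14 of 74 called lower and in 8 of 18 genes of the heat shock list. The longer 3-unit form was in 0.445% of the 8314 and in none of the called genes, Hspa1a and Hspa1b included. It was the planned heat shock motif, and the 2-unit form was not among the motifs planned. The AP-1 motif TGACTCA or TGAGTCA was in 3.67% of the 8314, in 0 of 21 and in 4 of 74, the CRE motif TGACGTCA in 3.16%, in 0 of 21 and in 2 of 74, and the NBRE of Nr4a proteins, AAAGGTCA, in 1.07%, in 0 of 21 and in 1 of 74. The BCL6 motif TTCCTAGAA was in 0.361% of the 8314 and in none of the called genes. The 2-unit form can overlap the 3-unit form, and a match or its absence describes these letters in this window alone.

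Other chaperones did not reach the threshold: 2 of 24 tested were called, both higher (0.284% of all tested genes), 8 were higher and 0 lower at an unadjusted p under 0.05 (7.21% and 6.92% of all), and the median was 0.25. Hsp90aa1, the inducible HSP90, had 30.3, 28.5, 48.4 and 39.8 FPKM (log2 fold change 0.58, edgeR adjusted p = 0.109), and Hspa8, the constitutive HSP70, had 113, 108, 134 and 146 (0.33, edgeR adjusted p = 0.226). Hspa8 and Hsp90aa1 had no overlap between labels, as had 43.5% of all genes.

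Igfbp4 (chromosome 11, 99041244 to 99054392), a secreted binding protein of insulin-like growth factors, was among the more abundant of the genes that rose. It was at 22.8 and 21 FPKM in the WT libraries and 62.0 and 54.2 in the KO libraries, a rise of 1.40 ± 0.11 on the log2 scale (edgeR adjusted p = 0.0179), and was lost only without WT replicate 2 (0.0604, with 1.35). Lower-level rises included Syt13, a synaptotagmin (1.03, 0.975, 4.14 and 3.67 FPKM, log2 fold change 1.95), the organic cation transporter Slc22a3 (1.69, 1.42, 6.37 and 4.18 FPKM, 1.75), the monocarboxylate transporter Slc16a5 (1.74, 1.6, 5.13 and 3.83 FPKM, 1.42) and the peptide transporter Slc15a1 (1.61, 1.73, 3.85 and 3.72 FPKM, 1.17). Also named by rank were the endocytic scaffold Itsn1 (0.765, 0.499, 1.73 and 1.88 FPKM, 1.51), the histamine receptor Hrh4 (5.14, 4.32, 12.7 and 10.1 FPKM, 1.26) and F13a1, a coagulation factor chain also made by macrophages (0.656, 0.802, 2.07 and 2.13 FPKM, 1.52). The myeloid marker Lyz2 was at 25.6, 10.7, 109 and 15.7 FPKM, and the part of myeloid cells in the F13a1 value was not tested. Each of Syt13, Slc22a3, Slc16a5, Slc15a1, Itsn1, Hrh4 and F13a1 was called in 1 or 2 of the 4 fits that leave out a library.

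Ccr9 (chromosome 9, 123678439 to 123784330), the receptor for the gut and thymic chemokine CCL25, was the only called gene of 20 tested chemoattractant receptors (0.284% of all tested genes were called higher). It was at 12.6, 14.7, 26.5 and 34.1 FPKM and rose by 1.14 ± 0.15 on the log2 scale (edgeR adjusted p = 0.0388). Its value ranged from 0.96 to 1.31 without single libraries, and it was called without KO replicate 2 but not without KO replicate 1 (0.0534), WT replicate 1 (0.0687) or WT replicate 2 (0.0978). Ccr8 had 72.1, 56.3, 96.0 and 96.7 FPKM (log2 fold change 0.58, edgeR adjusted p = 0.12). Among the 20 receptors, 7 were higher and 2 lower at an unadjusted p under 0.05 (7.21% and 6.92% of all tested genes). Ccr9 is also a marker of double-positive thymocytes. Several other markers of that stage had higher levels in the KO libraries, although none passed: the recombinase gene Rag1 had 1.24, 0.903, 7.53 and 2.83 FPKM (2.26, edgeR adjusted p = 0.102), Dntt, the terminal transferase, had 14.3, 8.76, 62.1 and 29.4 (1.98, edgeR adjusted p = 0.088), and Cd8b1 had 4.03, 4.90, 7.82 and 14.9 (1.34, edgeR adjusted p = 0.131). Summed over all 10 markers, which were all above 0 and included Ccr9 and Cd4, FPKM was 93.1, 108.8, 157.2 and 180.4. Cd4 alone was at 26.8, 55.0, 22.8 and 78.4 FPKM, higher in replicate 2 under both labels. At an unadjusted p under 0.05, 6 of 9 tested, Ccr9 included, were higher and 1 lower (7.21% and 6.92% of all tested genes). The part of double-positive cells in the Ccr9 value was not tested.

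Genes of mitosis and the spindle were higher in the KO libraries almost throughout, but 1 of 36 tested passed (0.284% of all tested genes were called higher). The called gene was Kif23 (chromosome 9, 61915905 to 61946774), a kinesin of cytokinesis, at 2.52 and 2.01 FPKM in the WT libraries and 6.13 and 4.79 in the KO libraries, a rise of 1.26 ± 0.17 on the log2 scale (edgeR adjusted p = 0.0393). Kif23 (1.07 to 1.44) was lost without KO replicate 1 (0.0905) and WT replicate 2 (0.143). The proliferation marker Mki67 had 15.4, 13.8, 47.2 and 26.2 FPKM (1.32, edgeR adjusted p = 0.0977), the topoisomerase Top2a had 13.9, 10.5, 40.2 and 22.6 (1.36, edgeR adjusted p = 0.103), and cyclin B1, Ccnb1, had 0.964, 0.884, 4.02 and 1.63 (1.6, edgeR adjusted p = 0.163). KO replicate 1 was the highest library for each of these genes, and the WT libraries lay close together.

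At an unadjusted p under 0.05, 32 mitosis genes were higher and 1, the condensin subunit Smc4, was lower, beside 7.21% and 6.92% of all tested genes, and the list's median was 1.24. The strict order of KO replicate 1, KO replicate 2, WT replicate 1 and WT replicate 2, from high to low, was followed by 30 of the 36 mitosis genes and 22 of 36 DNA replication genes, against 8.71% of all tested genes. Smc4 had 82.1, 136, 58.2 and 70.9 FPKM (-0.77, edgeR adjusted p = 0.224). Without KO replicate 1 the mitosis median was 0.72 and none was called by edgeR, whereas without KO replicate 2 it was 1.58 and 29 were called. DNA replication genes had no call by edgeR, 20 of 36 higher at an unadjusted p under 0.05, and a median of 0.55 that was 0.24 without KO replicate 1 and 0.86 without KO replicate 2. KO replicate 1 also had the highest B and myeloid marker sums and the most Rag1 and Dntt transcripts. The sum of the double-positive markers was instead highest in KO replicate 2, at 180.4 FPKM against 157.2 in KO replicate 1. Ccr9, Cd8b1, Cd8a and Cd4 were likewise higher in KO replicate 2 than in KO replicate 1. The part of B, myeloid and double-positive cells in the cell cycle values was not tested.

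**Figure D4:**
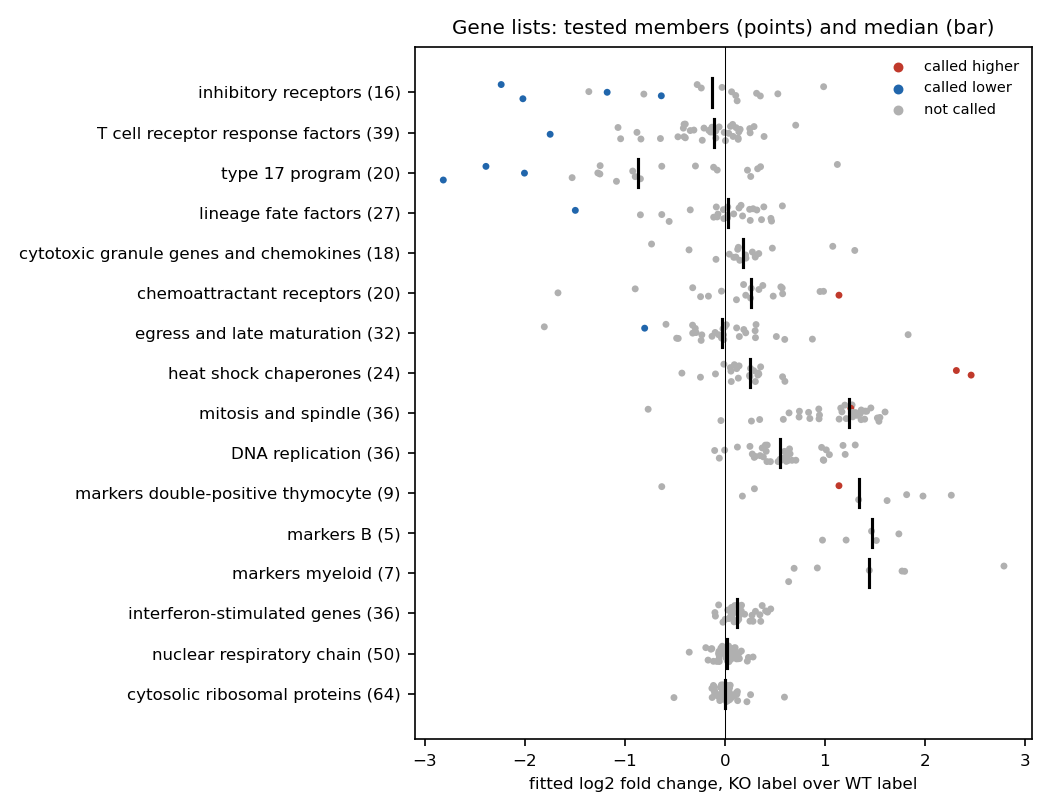
Fitted log2 fold change (KO label over WT label, horizontal) of each tested member of 16 gene lists, with the number tested in brackets, called genes in colour and the list median as a black bar. The type 17 bar lies at -0.87 and the mitosis bar at 1.24, each mostly from genes that did not pass the test. The bars of the B cell, myeloid and double-positive thymocyte markers lie further from 0 than these, at 1.47, 1.45 and 1.34. Respiratory chain and ribosomal protein genes lie around 0.

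Of the cytotoxic genes none passed, although the granzymes were high in these cells. Gzmb had 286, 155, 530 and 561 FPKM (log2 fold change 1.30 ± 0.27, edgeR adjusted p = 0.103) and Gzma had 117, 56.0, 208 and 159 (1.08 ± 0.33, edgeR adjusted p = 0.201), with WT replicate 2 the lowest library for both. The 6 natural killer cell markers, Gzma among them, summed to 259.0, 148.7, 352.6 and 302.9 FPKM, and Ncr1, the defining one, was at 0.272, 0, 0.468 and 0.730 FPKM. The 18 tested members of the list of cytotoxic granule genes and chemokines had 0 calls by edgeR and a median of 0.18. At an unadjusted p under 0.05, 4 of them were higher and 0 lower (7.21% and 6.92% of all tested genes). Among 30 sterol and fatty acid synthesis genes 0 were called by edgeR and 11 were higher at an unadjusted p under 0.05 (7.21% of all tested genes), with a median of 0.22. Interferon-stimulated genes had 0 of 36 called by edgeR and a median of 0.13. Of the 36, 6 were higher and 0 lower at an unadjusted p under 0.05 (7.21% and 6.92% of all tested genes). A positive log2 fold change was found in 32 of them. The 50 nuclear respiratory chain genes, 13 mitochondrially encoded genes and 64 cytosolic ribosomal protein genes had none called by edgeR and none at an unadjusted p under 0.05.

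The genotype effect in these sorted cells was then set beside that in double-positive thymocytes of the same labelled genotypes, stimulated in culture with antibodies to CD3 and CD28 and sorted as double-negative cells. Libraries of the 2 systems were built by different providers, so levels were not compared between systems, only the KO-over-WT differences within each. Of the 113 genes called in vivo, 67 could be tested in both. Of 13 that rose in vivo, 12 were also called higher in vitro and 0 lower, where 37.8% of all genes tested in vitro were called in either direction. Of 54 that fell in vivo, 30 were called lower in vitro and 9 higher. The test of the difference between systems called 47 of the 67, beside 16.4% of all genes tested for it, a share that the choice of genes called in vivo affects.

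Genes with a like fall in both systems included Nr4a2, with log2 fold changes of -1.75 in vivo and -1.67 in vitro (difference -0.04, edgeR adjusted p = 0.921), and Pdcd1, with -1.18 and -0.96 (difference -0.19, edgeR adjusted p = 0.452). Lag3 and Tigit were lower in both, but the effect in vivo minus that in vitro was -1.35 for Lag3 (edgeR adjusted p = 0.0212) and -1.36 for Tigit (edgeR adjusted p = 0.00298). Kit fell in vivo and rose by 1.52 in vitro, a difference of -3.54 (edgeR adjusted p = 0.000694). Lmo4 fell in vivo and had a log2 fold change of 0.0025 in vitro, with a difference of -1.47 (edgeR adjusted p = 0.000694).

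**Figure D5:**
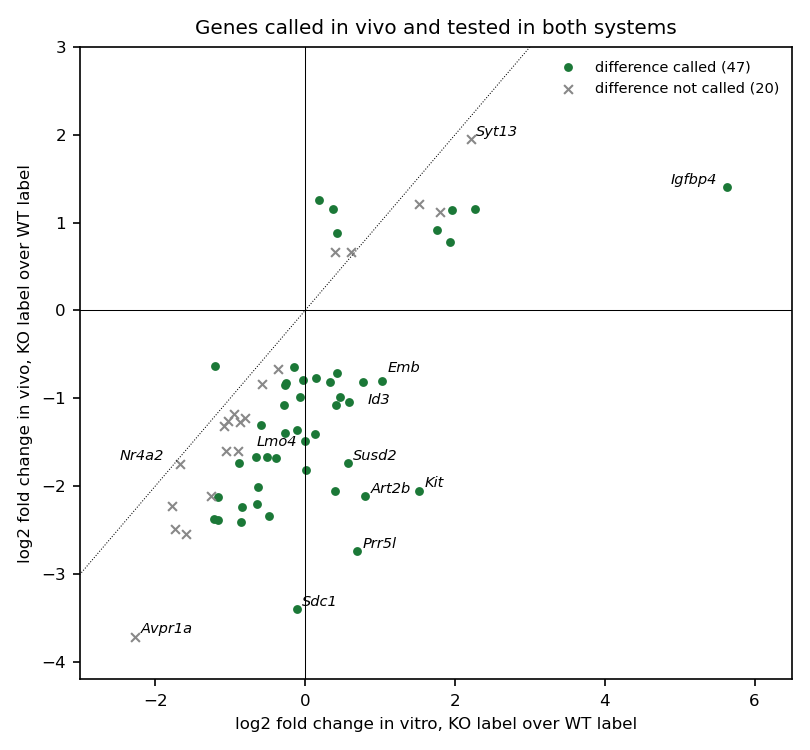
Log2 fold change of the KO label over the WT label in vitro (horizontal) and in vivo (vertical) for the 67 genes called in vivo and tested in both systems; green points differ between systems at an edgeR adjusted p under 0.05 and grey crosses do not, and the dotted line marks equal effects. Igfbp4 lies far right of the line, and Prr5l, Kit, Art2b and Emb lie at the lower right, lower in vivo and higher in vitro.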

How the data were processed

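Messenger RNA of 4 libraries of sorted thymocytes was analysed, 2 per label, from 1 deposited table per library that holds whole-number gene counts and FPKM values made by the authors. Per the submitters' processing notes, Trim Galore 0.4.4, Bowtie2, featureCounts (Subread), RSEM and DESeq2 were used with mm10; which step gave which column, and whether strand was used, is not given in the sources used here. Per the labels' protocols RNA was extracted with TRIzol and the in vivo libraries were built by BGI Genomics. The deposited counts were tested with edgeR 4.0.16 (TMM scaling, quasi-likelihood F test, group means, 2 against 2, R 4.3.3), two-sided, on genes whose deposited FPKM reached 1 in 2 or more of the 4 libraries, with Benjamini-Hochberg adjustment over all of them and a threshold of 0.05. An exact permutation of 2 against 2 libraries cannot give a two-sided p below 0.333, so none was used. The libraries of a label differed beyond sampling noise (chi-square per degree of freedom 22.8 for WT and 12.4 for KO), so no pair was taken for 1 library deposited more than once. FPKM is given as a level, and log2 fold changes come from the counts. The script was tested on simulated counts.

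The difference between systems was tested in edgeR over all 8 libraries. That fit gives each gene 1 spread for both systems, although the in vitro libraries came from another provider and culture. With all 8 libraries in 1 fit, the in vivo comparison itself called 266 genes higher and 279 lower, in place of 29 and 84. The p-values of the difference rest on that shared spread. Alternatives used DESeq2 1.42.0, limma 3.58.1 on log2(FPKM + 1) and log2(FPKM + 0.1), other filters and factors, a replicate term, and fits without 1 library. Coordinates come from GENCODE M21 (12534 of the 12665 symbols matched) and promoters from RefSeq on GRCm38.p6. Genes were named by rule: the 15 largest rises and 20 largest falls among called genes that are not predicted genes, pseudogenes or receptor segments, up to 5 called members of each gene list, a fixed set of T cell genes, the 5 genes of each group with the largest difference between its libraries, and 8 called genes ranked first by adjusted p in the test between systems (4 genes tied for the last places, of which Lmo4 and Fcrl1 were taken); other genes were chosen after their values were seen. The genes and lists were chosen with earlier results of these data known, and the symbols of the histone list were updated to those in the tables. Trbc1, Trbc2, Ighm and Igkc are not analysed here.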

Additional observations from a re-analysis of the deposited data

Results flagged for a closer look

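For the 8 genes below, all called in vivo, the effect of the genotype differed between the sorted precursors and the cultured cells by the edgeR test of the difference itself, with adjusted p-values of 0.000694 or less. Kit and Id3, also called in vivo, had the same adjusted p as Lmo4 and Fcrl1, 0.000694, with differences of -3.54 for Kit and -1.56 for Id3. Igfbp4 rose in both, by 1.40 in vivo and 5.63 in vitro, a log2 difference of -4.192 (edgeR adjusted p = 0.000151). Prr5l fell by 2.74 in vivo and had a log2 fold change of 0.70 in vitro, a difference of -3.407 (edgeR adjusted p = 0.000151). Art2b, an ADP-ribosyltransferase of T cells, had -2.12 and 0.80, a difference of -2.882 (edgeR adjusted p = 0.000223). Emb had -0.80 and 1.03, a difference of -1.798 (edgeR adjusted p = 0.000271). Dbn1, an actin-binding drebrin, differed by -2.414, Susd2 by -2.294, Lmo4 by -1.468 and the Fc receptor-like gene Fcrl1 by -1.452, all lower in vivo under the KO label and between 0.0025 (Lmo4) and 0.57 (Susd2) in vitro. The systems also differed in library provider, stage and culture, which cannot be told apart.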

How the results depend on the processing

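The 29 genes higher and 84 lower became 260 and 245 in DESeq2, 266 and 279 when 1 fit held all 8 libraries, and 14 and 54 with limma on log2(FPKM + 1); limma on log2(FPKM + 0.1) gave 16 higher. Leaving out 1 library gave 1 to 193 higher and 6 to 124 lower, and 832 to 1816 genes in place of 1534 for the difference between systems. All 113 called genes kept their direction in every setting that tested them. Some genes that were not called changed sign when KO replicate 1 or WT replicate 2 was left out, 5 of the named genes in each case. Over the 4 such fits Bcl6 ranged from -0.52 to 0.16 (0.0076 without WT replicate 2), Bcl2 from -0.26 to 0.16 (0.07 without KO replicate 1), Bcl2l11 from -0.48 to 0.23 (0.06 without WT replicate 2) and S1pr1 from -0.76 to 0.042 (0.017 without KO replicate 1). Zbtb16 ranged from -0.26 without KO replicate 1 to 0.52, and Tbx21 from -0.064 without WT replicate 2 to 0.66. The cause was not tested.

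Replicates 1 and 2 share only a number across labels, and no label names a common litter or batch. Across the 10227 genes, the difference between the replicates of WT and that of KO correlated at 0.459 (Pearson, across genes, which are not independent). With the replicate block, 607 genes were higher and 471 lower, among them all 113 and 34 of the genes chosen to be named that had not passed without it, Gzma and Gzmb included, and 1796 differed between systems. With 2 libraries per label, genes of low count such as Myl1 are the least certain.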
